A study of Mus musculus with 14 samples.

Results

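The genes described here are 40 genes of mitosis and cytokinesis, chosen by name. Every probe set whose gene symbol in the array's annotation is on the list was taken, and a gene with several was read from the set with the greatest average across 14 arrays. 37 of the 40 were measured, among 12393 genes in all, through 67 probe sets. The cyclin Ccnb1, the passenger protein Cdca8 and the separase gene Espl1 have no probe set named for them alone and were not analysed here. The arrays, of Affymetrix's mouse oligonucleotide type, measured RNA of mouse bone marrow cells sorted as Sca1-positive and cKit-negative. 5 Instigator arrays came from mice bearing a BPLER tumour, grown from a transformed human mammary epithelial line and called instigating in the labels. 5 Non-instigator arrays came from mice with a tumour of the human prostate cancer line PC3, called non-instigating. 4 Matrigel arrays came from mice given Matrigel, a basement membrane extract. The mouse strain, age, time after implantation and any pooling of animals are not given in the labels used here. No label says that the arrays are separate animals. The p-values set a group difference only against the spread among these samples, and that spread may be technical. The description of Instigator 5 names the PC3 tumour, while its title and source characteristic name BPLER.

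A dividing cell switches on these genes late in its cycle. Cdk1 with its cyclins drives entry into mitosis, kinetochores join the chromosomes to the spindle, the spindle checkpoint holds back the anaphase-promoting complex until every chromosome is attached, and the central spindle and a contractile ring then split the cell. Many of these genes are held off in resting cells by the DREAM complex and switched on by B-MYB and FOXM1, through CCAAT boxes bound by NF-Y and the cell cycle homology region (CHR) next to the start site. Since cells in cycle carry these transcripts together, their summed level is widely read as a sign of how much of a population is dividing.

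The shared promoter layout is visible in the sequences of the mouse genes. RefSeq promoters (build GRCm38.p6), each covering 250 bases before to 50 after an annotated start, were found for 34 of the 40 genes. Of these 34 genes, 26 (76.5%) held the CHR letters TTTGAA on either strand in at least 1 promoter. By promoter, the letters stood in 28 of their 36, against 17.9% of 32851 promoters in the genome. The NF-Y box CCAAT, searched on both strands, stood in 29 of the 36, against 37.4% of all promoters. 25 of the 36 held both, against 6.95% of all promoters. An E2F-like stretch, GCGGGAA, was in 0 of the 36 and in 4.6% of all promoters. TTTGAA lay within 50 bases of the start in 26 of the 36 member promoters (72.2%), against 4.94% of all promoters, while CCAAT did so in 20 (55.6%), against 13.6%. The median TTTGAA match began at position -1 from the start, and the median CCAAT match at -67.5. A match is a description of the letters and not of a bound site. Kif2c and Anln hold no CCAAT, so the 6 promoters printed here show that layout only in part. They were chosen as promoters that hold TTTGAA, in order of the smallest unadjusted p of the gene in any comparison, which ran from 0.0214 for Racgap1 to 0.084 for Anln, so they do not stand for the genes without the motif. Cenpe, with a p of 0.026, has CCAAT at -12 and no TTTGAA and is not among them. They are written in the direction of transcription with TTTGAA and CCAAT, or their reverse complements, in capitals.
Racgap1, chr15:99651607-99651906, minus strand: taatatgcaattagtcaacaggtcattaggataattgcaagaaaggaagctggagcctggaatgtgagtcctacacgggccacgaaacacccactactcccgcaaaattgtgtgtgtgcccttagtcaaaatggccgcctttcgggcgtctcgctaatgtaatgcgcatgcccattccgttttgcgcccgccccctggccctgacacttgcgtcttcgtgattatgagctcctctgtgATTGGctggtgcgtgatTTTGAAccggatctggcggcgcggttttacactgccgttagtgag
Kif4, chrX:100625815-100626114, plus strand: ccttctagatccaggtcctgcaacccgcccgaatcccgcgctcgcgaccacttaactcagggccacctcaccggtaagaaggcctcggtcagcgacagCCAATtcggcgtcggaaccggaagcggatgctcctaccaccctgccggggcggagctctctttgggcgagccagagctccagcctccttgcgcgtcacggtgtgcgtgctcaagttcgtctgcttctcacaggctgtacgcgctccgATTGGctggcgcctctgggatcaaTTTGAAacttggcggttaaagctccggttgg
Kif22, chr7:127042371-127042670, minus strand: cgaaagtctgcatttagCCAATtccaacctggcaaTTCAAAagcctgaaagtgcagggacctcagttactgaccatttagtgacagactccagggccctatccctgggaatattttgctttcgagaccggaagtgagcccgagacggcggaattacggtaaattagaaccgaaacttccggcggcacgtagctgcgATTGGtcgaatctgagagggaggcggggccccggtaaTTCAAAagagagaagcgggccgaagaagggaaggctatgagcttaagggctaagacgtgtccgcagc
Ccnb2, chr9:70421505-70421804, minus strand: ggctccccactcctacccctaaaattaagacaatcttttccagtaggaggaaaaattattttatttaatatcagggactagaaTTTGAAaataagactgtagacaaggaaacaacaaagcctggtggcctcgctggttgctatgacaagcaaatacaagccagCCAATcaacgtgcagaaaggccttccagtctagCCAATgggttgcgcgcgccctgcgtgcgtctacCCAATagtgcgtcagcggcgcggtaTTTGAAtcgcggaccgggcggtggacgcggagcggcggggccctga
Kif2c, chr4:117178723-117179022, minus strand: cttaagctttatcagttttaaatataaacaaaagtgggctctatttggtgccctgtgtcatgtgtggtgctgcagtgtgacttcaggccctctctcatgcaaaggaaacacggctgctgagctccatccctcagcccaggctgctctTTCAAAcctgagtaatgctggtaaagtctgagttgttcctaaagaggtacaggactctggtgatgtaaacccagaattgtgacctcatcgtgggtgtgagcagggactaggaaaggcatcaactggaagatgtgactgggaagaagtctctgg
Anln, chr9:22389157-22389456, minus strand: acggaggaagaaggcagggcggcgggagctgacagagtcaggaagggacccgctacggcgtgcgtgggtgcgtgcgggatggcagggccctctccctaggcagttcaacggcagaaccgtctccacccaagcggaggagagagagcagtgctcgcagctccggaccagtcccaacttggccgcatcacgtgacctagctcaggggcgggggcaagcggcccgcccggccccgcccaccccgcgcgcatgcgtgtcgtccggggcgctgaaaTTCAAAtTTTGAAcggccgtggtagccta
Racgap1, Kif4, Kif22 and Ccnb2 hold both motifs in these 300 bases. Kif2c and Anln hold TTTGAA, at -103 in Kif2c and at 22 and 29 in Anln, and no CCAAT. Of the genes with a promoter, Birc5, Bub1, Ccnb1, Cenpe, Mad2l1, Nek2, Nuf2 and Nusap1 had no TTTGAA match.

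**Figure D1:**
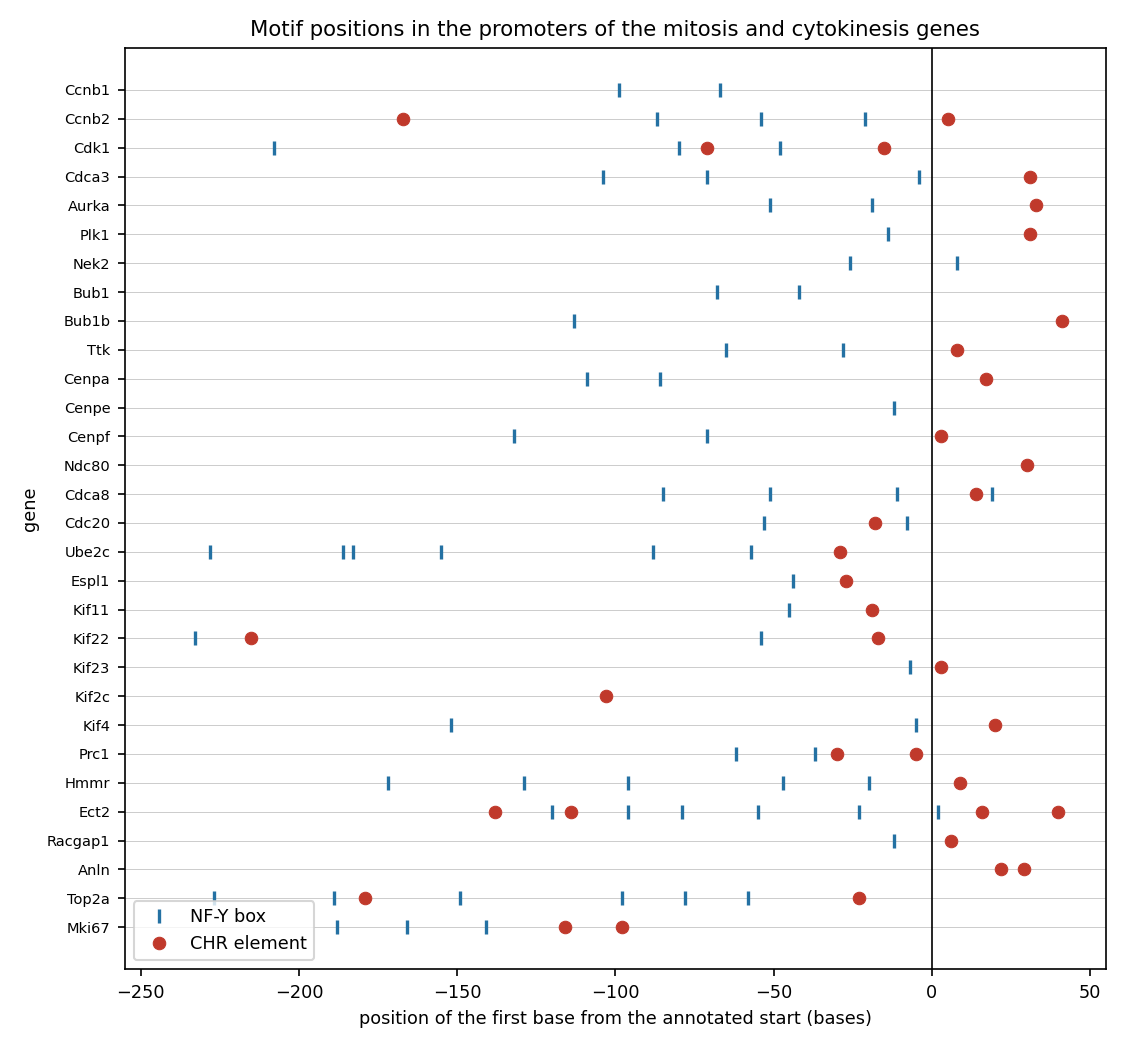
Positions of CHR letters (TTTGAA, red circles) and NF-Y boxes (CCAAT, blue bars) in the RefSeq promoters of the mitosis and cytokinesis genes that hold either, in bases from the annotated start. The red circles gather around the start, with a median of -1, and the blue bars lie mostly upstream, with a median of -67.5.

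Values are log2 of the deposited intensity, so a difference of 1 is a doubling, and arrays are listed by replicate number. Means are given ± SD over the 5 Instigator, 5 Non-instigator and 4 Matrigel arrays. The gene-level probe sets of 36 of the 37 genes had a mean above the array-wide median. Instigator 4 stood apart from the other arrays on the controls that compare the 5' and 3' ends of a transcript. Its 5' minus 3' difference was -3.41 for beta-actin and -4.03 for Gapdh, against -0.81 to -0.51 and -1.16 to -0.73 on the other arrays. Its transferrin receptor control, -2.58, lay within the range of the others. The median over all probe sets was 7.18 on Matrigel 3, while the remaining 13 arrays ran from 6.90 to 7.01. Instigator 4 was the highest array for 13 of the 37 genes and the lowest for 10, and Matrigel 3 was the lowest for 9 and the highest for 3. Of the antigens used in the sort, Sca1 (Ly6a) has no probe set of its own, and Kit averaged 7.58 ± 0.22 in Instigator, 7.37 ± 0.45 in Non-instigator and 7.52 ± 0.37 in Matrigel (SD).

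For most of the mitosis genes the spread between arrays of the same group exceeded the difference between groups, and no gene passed the test between groups. Averaged over the 37 genes, the log2 level was 9.33, 9.13, 9.27, 9.27 and 9.17 on the Instigator arrays, 9.37, 9.22, 9.20, 9.01 and 9.004 on the Non-instigator arrays, and 9.17, 9.04, 9.09 and 9.24 on the Matrigel arrays. The group means were 9.23 ± 0.08 in Instigator, 9.16 ± 0.16 in Non-instigator and 9.14 ± 0.08 in Matrigel (SD). The highest and the lowest of all 14 arrays were both Non-instigator arrays. Non-instigator 1 lay above the mean of the rest of its group for 35 of the 37 genes, while Non-instigator 4 lay below for 34 and Non-instigator 5 for 32. The shift ran through the roles, since Non-instigator 1 was the highest of its group in 9 of 10 roles and the lowest place was shared between Non-instigator 4 and Non-instigator 5, with 5 roles each. Within Instigator, array 1 lay above the rest for 29 genes and array 2 below for 31. The median within-group SD of the 37 genes was 0.21 in Instigator, 0.21 in Non-instigator and 0.20 in Matrigel, against 0.17, 0.13 and 0.19 over all genes. For Instigator against Matrigel the difference of a gene was smaller than its range within Instigator for 34 of the 37 and within Matrigel for 34. For Non-instigator against Matrigel this held for all 37 genes in either group, and for Instigator against Non-instigator for 37 and 36. The shares of all genes that meet these rules are not given here. In bulk RNA, fewer dividing cells and less of these transcripts per dividing cell cannot be told apart.

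**Figure D2:**
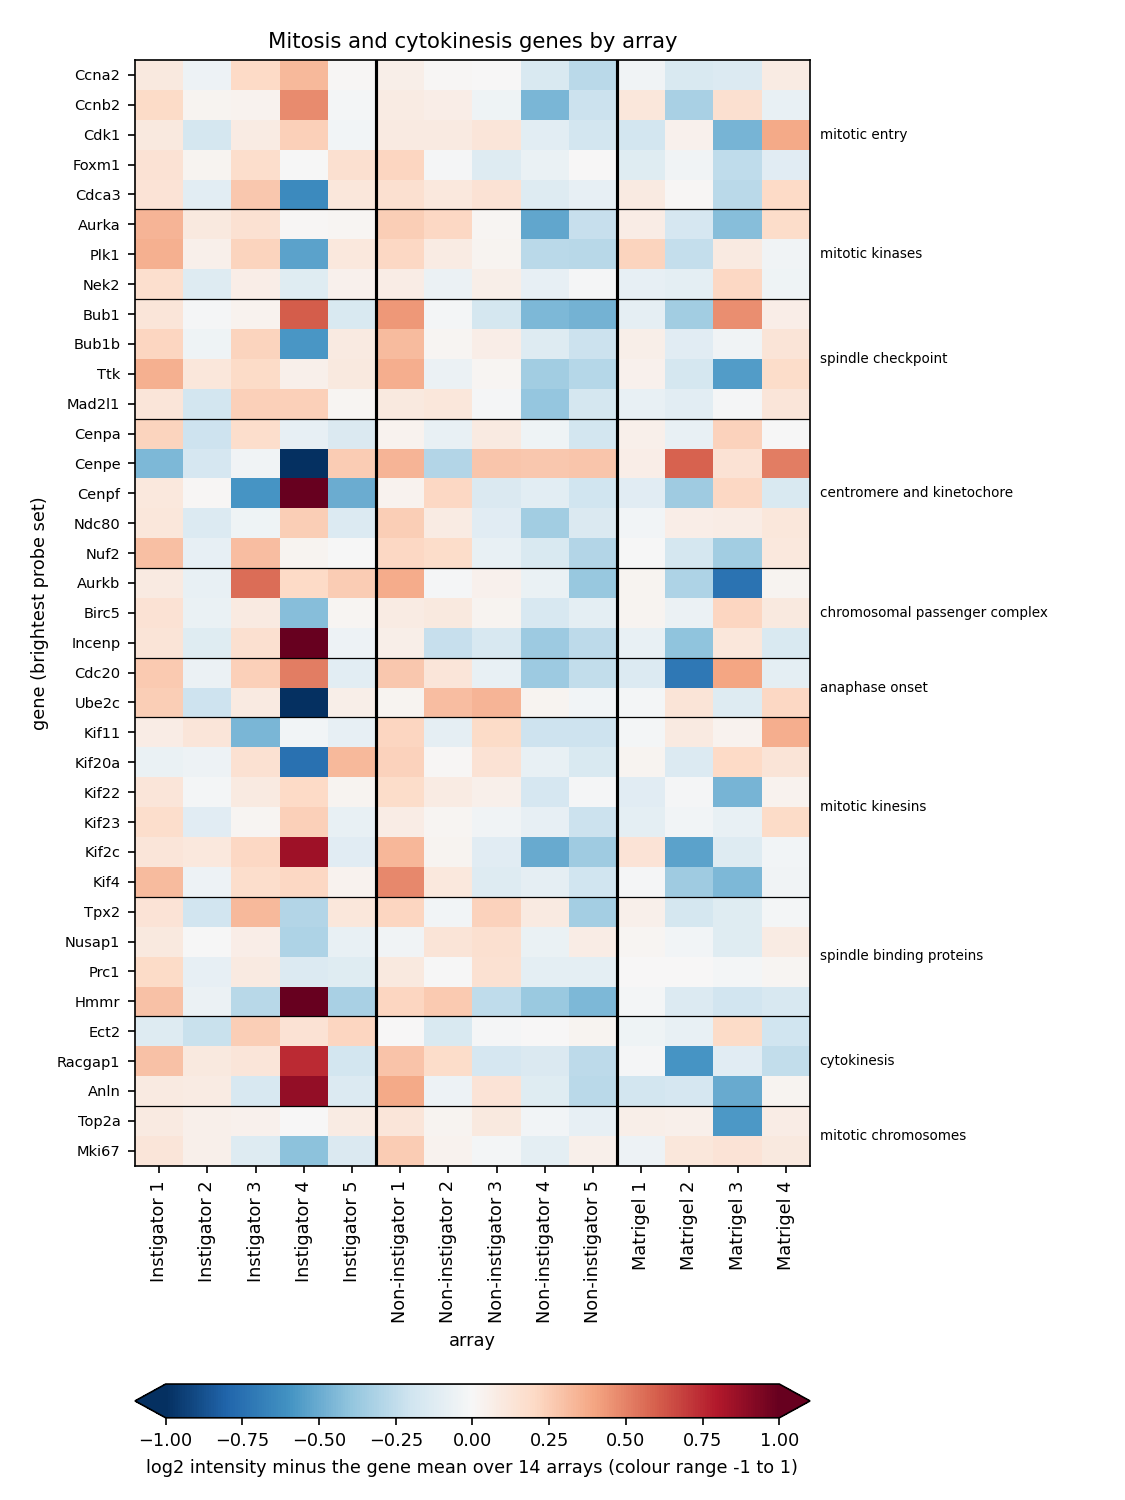
Log2 intensity of the 37 genes on the 14 arrays, each as the difference from the gene's mean over all arrays, with genes grouped by role and colours spanning -1 to 1. Non-instigator 1 is red and Non-instigator 4 and 5 are blue through most roles, while Instigator 4 mixes strong reds and blues.

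Within Non-instigator, some lists of markers of other cells also differed between the arrays with the highest and lowest mitosis levels. The mean of 11 B precursor markers was 7.94 on Non-instigator 1, the highest array for mitosis genes, and 9.06 on Non-instigator 5, the lowest. The mean of 7 T cell markers was 7.93 on Non-instigator 1, and 9.09 and 9.01 on Non-instigator 4 and 5. The mean of 11 granulocyte precursor markers was 12.57 on Non-instigator 1 and 12.10 on Non-instigator 5. Non-instigator 2 and 4, with mitosis means of 9.22 and 9.01, were alike at 12.36 and 12.38 for this list. For B precursors they were at 8.71 and 8.72. The mean of 11 erythroid markers was 9.02, 9.40, 9.29, 9.05 and 9.47 on the Non-instigator arrays and did not follow the mitosis order. In Instigator the lowest B precursor mean, 7.55, was that of array 3, whose mitosis mean was 9.27. Across each group, B precursor means ran from 7.55 to 8.67 in Instigator, from 7.94 to 9.06 in Non-instigator and from 8.41 to 8.92 in Matrigel. T cell means ran from 7.79 to 8.67 in Instigator, from 7.93 to 9.09 in Non-instigator and from 8.35 to 8.71 in Matrigel. Granulocyte precursor means ran from 12.38 to 12.59 in Instigator, from 12.10 to 12.57 in Non-instigator and from 12.22 to 12.42 in Matrigel. The part of such cells in the mitosis levels was not tested. The 39 measured genes of DNA replication, the step before mitosis, averaged 9.73 on Non-instigator 1 and 9.21 and 9.23 on Non-instigator 4 and 5.

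**Figure D3:**
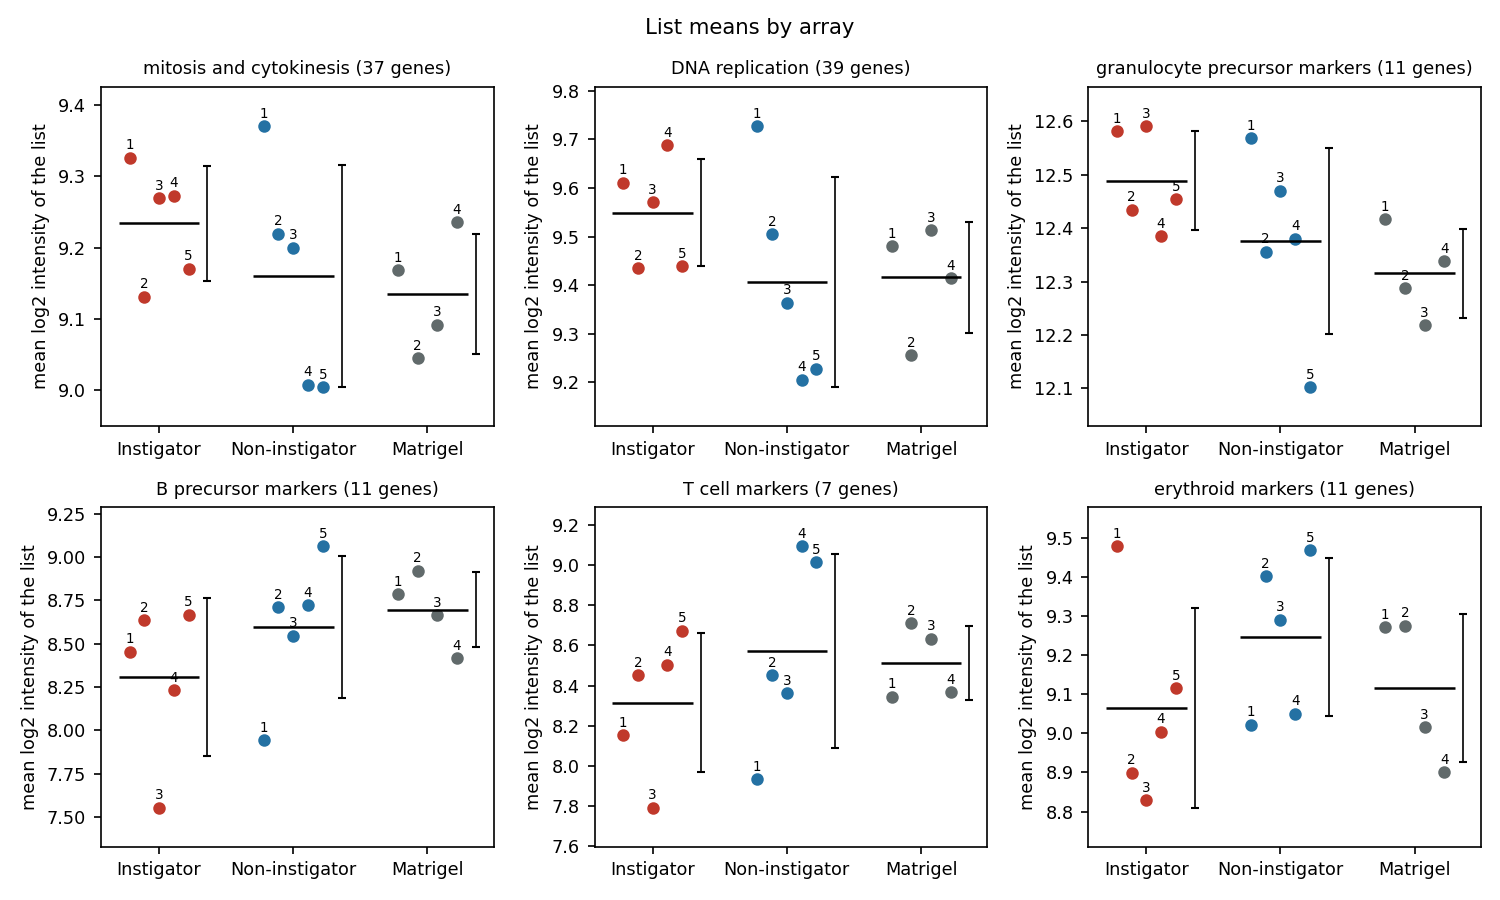
Mean log2 intensity of 6 gene lists on each array, in the order Instigator, Non-instigator and Matrigel, with array numbers beside the points, the group mean as a line and the SD as a bar. In Non-instigator the mitosis and replication means are highest on array 1 and low on arrays 4 and 5, and the B precursor and T cell means are low on array 1.

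Instigator against Matrigel asks how marrow cells of hosts with an instigating tumour differ from those of tumour-free hosts. 25 of the 37 genes were higher in Instigator and 12 lower, with a median difference of 0.10, while 45.9% of all genes were higher, with a median of -0.02. With each array centred on its own median, 31 of the 37 were higher and the median was 0.18, while the median of all genes was then 0.06. 0 of the 37 passed at an adjusted p under 0.05 (limma), and percent called over all 22626 probe sets was 0%, so counts at an unadjusted p are given as description. By that count 4 genes were higher (background 3.27%) and 1 was lower (background 7%). The lowest Instigator array lay above the highest Matrigel array for 1 gene, Foxm1 (background 1.02%), and the reverse held for 0 genes (background 1.68%). Foxm1 was also the only gene of the 37 whose group difference exceeded both its range within Instigator and its range within Matrigel. The share of all genes that do so is not given here. The count of higher genes was 7 without Instigator 2. The count of lower genes was 0 without Matrigel 2 or without Matrigel 4, and 2 without Instigator 1. No background is given for these fits with an array left out.

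Non-instigator against Matrigel asks the same of hosts with a tumour that does not instigate. 22 of the 37 genes were higher and 15 lower, with a median of 0.01, while 38.3% of all genes were higher, with a median of -0.04. 0 genes were called at an adjusted p under 0.05 (limma), and the background was also 0%. At an unadjusted p, 0 genes were higher (background 0.601%) and 0 lower (background 1.51%). The groups overlapped for every one of the 37 genes, with 0 wholly higher (background 0.287%) and 0 wholly lower (background 0.61%). The direction rested on single arrays. Without Non-instigator 1, 14 of 37 were higher with a median of -0.04, and the median over all genes was then also -0.04. Without Non-instigator 4, 27 were higher with a median of 0.07, against -0.03 over all genes. With arrays centred, 27 were higher and the median was 0.06, with a median of 0.02 over all genes.

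Set directly against the Non-instigator arrays, Instigator was higher for 26 genes and lower for 11, with a median of 0.08, while 58.2% of all genes were higher, with a median of 0.03. 0 genes were called at an adjusted p under 0.05 (limma; background 0%). At an unadjusted p, 1 gene, Incenp, was higher (background 2.24%) and 0 were lower (background 3.36%), and 0 genes were wholly higher (background 0.751%) or wholly lower (background 0.446%). Without Non-instigator 1, 6 genes were higher at an unadjusted p and 30 of 37 were higher in all. That count of 1 was 2 without Instigator 2, 3 without Instigator 5, and 0 when any of Instigator 3 or 4, Non-instigator 3, 4 or 5, or Matrigel 1, 3 or 4 was left out. The count of lower genes was 1 without Instigator 3, Instigator 5 or Non-instigator 2. Counts with an array left out have no background beside them. Any 2 of the 3 comparisons share a group of arrays, so their values are not independent of each other.

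**Figure D4:**
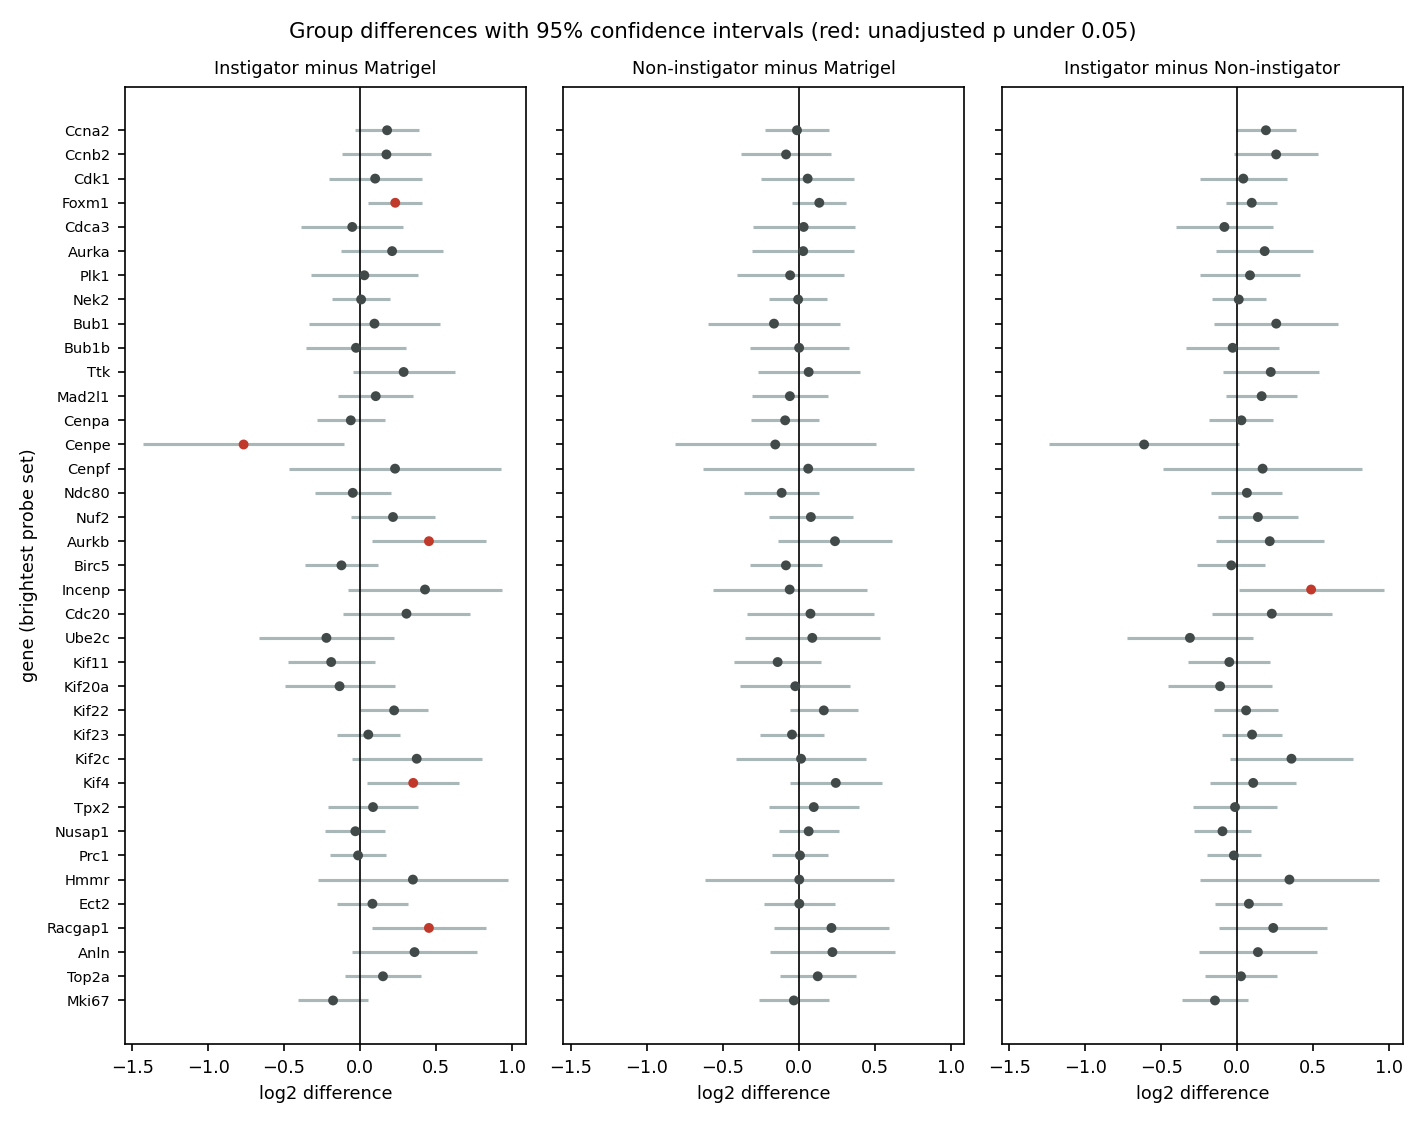
Log2 differences of the 37 genes in the 3 comparisons (points), with 95% confidence intervals (lines) and genes in order of role. Red points have an unadjusted p under 0.05, which 4 genes above 0 and Cenpe below 0 have for Instigator minus Matrigel and Incenp has for Instigator minus Non-instigator.

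Among the genes that start mitosis, Foxm1, the transcription factor that activates late cell cycle genes, had the smallest p of the 37 in Instigator against Matrigel. It was at 7.98, 7.86, 8.01, 7.84 and 7.999 on the Instigator arrays, 8.06, 7.83, 7.71, 7.77 and 7.85 on the Non-instigator arrays, and 7.71, 7.80, 7.59 and 7.73 on the Matrigel arrays. Every Instigator array was above every Matrigel array, and the Non-instigator arrays lay across both. Foxm1 differed by 0.23 (SE 0.08; limma, unadjusted p = 0.0148, adjusted p = 0.442) between Instigator and Matrigel. Its 4 probe sets were all higher in Instigator than in Matrigel, by 0.09 to 0.37, the smallest from a dim set with a mean of 3.85. The gene-level set is of the x_at kind, whose probes can match related transcripts. Between Non-instigator and Matrigel the difference was 0.14 (SE 0.08), and 0.08 without Non-instigator 1.

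Cdk1, the kinase that drives mitosis, was at 10.80, 10.52, 10.78, 10.93 and 10.67 on the Instigator arrays, 10.78, 10.79, 10.82, 10.59 and 10.51 on the Non-instigator arrays, and 10.51, 10.74, 10.23 and 11.08 on the Matrigel arrays. The Matrigel arrays held both the highest and the lowest value. Cdk1 differed by 0.10 (95% interval -0.21 to 0.40) between Instigator and Matrigel, by 0.06 (95% interval -0.25 to 0.36) between Non-instigator and Matrigel, and by 0.04 (95% interval -0.25 to 0.33) between Instigator and Non-instigator. Without Matrigel 3, the lowest array, the first of these was -0.04 and the second -0.08, and without Matrigel 4, the highest, they were 0.24 and 0.20. Its partner cyclin A2 (Ccna2) was at 10.40, 10.25, 10.50, 10.62 and 10.31 on the Instigator arrays, 10.36, 10.31, 10.31, 10.14 and 10.03 on the Non-instigator arrays, and 10.27, 10.15, 10.17 and 10.38 on the Matrigel arrays. 3 of 5 Instigator arrays were above every Matrigel and every Non-instigator array. Ccna2 was higher in Instigator by 0.18 (SE 0.10) than in Matrigel and by 0.19 (SE 0.09; limma, unadjusted p = 0.0585, adjusted p = 0.813) than in Non-instigator. Cyclin B2 (Ccnb2) averaged 9.26 ± 0.20 in Instigator, 9.001 ± 0.23 in Non-instigator and 9.08 ± 0.22 in Matrigel, with a difference of 0.26 (SE 0.13; limma, unadjusted p = 0.0687, adjusted p = 0.813) between Instigator and Non-instigator, and of 0.17 without Non-instigator 4. Cdca3, an adaptor for the degradation of the Cdk1 inhibitor Wee1, averaged 9.64 ± 0.36 in Instigator, 9.73 ± 0.13 in Non-instigator and 9.69 ± 0.20 in Matrigel.

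Of the mitotic kinases outside the checkpoint, Aurora A (Aurka), which matures centrosomes, averaged 8.25 ± 0.13 in Instigator, 8.07 ± 0.32 in Non-instigator and 8.04 ± 0.27 in Matrigel. Plk1, which acts from mitotic entry to cytokinesis, averaged 8.24 ± 0.34 in Instigator, 8.16 ± 0.22 in Non-instigator and 8.21 ± 0.20 in Matrigel. Nek2, which separates centrosomes, averaged 7.70 ± 0.13 in Instigator, 7.69 ± 0.07 in Non-instigator and 7.69 ± 0.14 in Matrigel. Aurka and Plk1 were both highest on Instigator 1, and Plk1 was lowest on Instigator 4.

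Of the spindle checkpoint genes, Ttk, the kinase that starts the signal, was at 8.62, 8.38, 8.46, 8.31 and 8.36 on the Instigator arrays, 8.63, 8.21, 8.28, 7.92 and 7.98 on the Non-instigator arrays, and 8.31, 8.09, 7.71 and 8.45 on the Matrigel arrays. The groups overlapped, with 2 of 5 Instigator arrays above the highest Matrigel array. Ttk was higher by 0.29 (SE 0.16; limma, unadjusted p = 0.0881, adjusted p = 0.536) in Instigator than in Matrigel, and by 0.14 without Matrigel 3. Between Instigator and Non-instigator it differed by 0.22 (SE 0.15). Bub1, a checkpoint kinase at the kinetochore, averaged 8.80 ± 0.29 in Instigator, 8.54 ± 0.37 in Non-instigator and 8.70 ± 0.34 in Matrigel. Its difference was 0.26 (SE 0.19) between Instigator and Non-instigator, 0.14 without Instigator 4 and 0.40 without Non-instigator 1. Between Non-instigator and Matrigel it was -0.16 (SE 0.20), -0.01 without Matrigel 3, -0.08 without Non-instigator 4 or without Non-instigator 5, -0.29 without Matrigel 2 and -0.30 without Non-instigator 1. Its second probe set, dimmer with a mean of 5.04 against 8.68, gave 0.30 in that last comparison. Mad2l1, which blocks the activator Cdc20, averaged 10.25 ± 0.18 in Instigator, 10.09 ± 0.21 in Non-instigator and 10.15 ± 0.10 in Matrigel and was higher by 0.16 (SE 0.11) in Instigator than in Non-instigator, and by 0.08 without Non-instigator 4. Bub1b, another inhibitor of Cdc20, averaged 8.69 ± 0.33 in Instigator, 8.72 ± 0.21 in Non-instigator and 8.71 ± 0.11 in Matrigel.

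At the centromere and kinetochore, Cenpe is the motor that brings chromosomes to the spindle equator. It had the lowest difference of the 37 in Instigator against Matrigel and in Instigator against Non-instigator. It was at 6.26, 6.54, 6.68, 4.93 and 6.97 on the Instigator arrays, 7.06, 6.42, 6.99, 6.98 and 6.99 on the Non-instigator arrays, and 6.78, 7.30, 6.86 and 7.23 on the Matrigel arrays. 4 of 5 Instigator arrays were below the lowest Matrigel array, and Instigator 4 was far below all others. Cenpe was lower in Instigator than in Matrigel by a difference of -0.77 (SE 0.31; limma, unadjusted p = 0.026, adjusted p = 0.444), and by one of -0.61 (SE 0.29; limma, unadjusted p = 0.0536, adjusted p = 0.813) than in Non-instigator. Without Instigator 4 these differences were -0.43 and -0.28. Its gene-level set was the only one of the 37 whose mean lay below the array-wide median, at the 45.4th percentile.

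Of the other kinetochore genes, Nuf2, a subunit of the complex that grips microtubules, averaged 9.17 ± 0.18 in Instigator, 9.03 ± 0.22 in Non-instigator and 8.95 ± 0.20 in Matrigel and was higher by 0.22 (SE 0.13) in Instigator than in Matrigel, and by 0.14 without Matrigel 3. Its partner Ndc80 averaged 8.28 ± 0.17 in Instigator, 8.21 ± 0.23 in Non-instigator and 8.32 ± 0.06 in Matrigel, with a difference of -0.11 (SE 0.12) between Non-instigator and Matrigel that was -0.04 without Non-instigator 4 and -0.19 without Non-instigator 1. Cenpa, the histone variant that marks centromeres, averaged 9.83 ± 0.20 in Instigator, 9.80 ± 0.10 in Non-instigator and 9.89 ± 0.13 in Matrigel, with a difference of -0.09 (SE 0.10) between Non-instigator and Matrigel that was -0.03 without Matrigel 3 and -0.05 without Non-instigator 5. Cenpf averaged 7.54 ± 0.88 in Instigator, 7.37 ± 0.17 in Non-instigator and 7.31 ± 0.23 in Matrigel, and its value of 9.01 on Instigator 4 stood against 6.83 to 7.52 on the other Instigator arrays.

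The passenger complex, which corrects faulty attachments and later directs cytokinesis, held a pair of the larger differences. Its kinase Aurora B (Aurkb) was at 9.09, 8.92, 9.56, 9.20 and 9.25 on the Instigator arrays, 9.37, 8.98, 9.04, 8.93 and 8.62 on the Non-instigator arrays, and 9.03, 8.69, 8.26 and 9.02 on the Matrigel arrays. 4 of 5 Instigator arrays were above the highest Matrigel array. Aurkb was higher in Instigator than in Matrigel by 0.45 (SE 0.18; limma, unadjusted p = 0.0215, adjusted p = 0.442), and by 0.29 without Matrigel 3, the lowest array. Between Non-instigator and Matrigel the difference was 0.24 (SE 0.18), 0.08 without Matrigel 3 and 0.14 without Non-instigator 1. Its other probe set gave 0.24 for Instigator and -0.09 for Non-instigator against Matrigel.

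Incenp, the scaffold of the complex, was at 11.51, 11.26, 11.54, 12.74 and 11.33 on the Instigator arrays, 11.44, 11.15, 11.22, 11.02 and 11.12 on the Non-instigator arrays, and 11.31, 10.98, 11.49 and 11.23 on the Matrigel arrays. Instigator 4 stood more than 1 above every other array. Incenp was higher by 0.49 (SE 0.22; limma, unadjusted p = 0.0461, adjusted p = 0.813) in Instigator than in Non-instigator, and by 0.43 (SE 0.24) than in Matrigel. Without Instigator 4 these differences were 0.22 and 0.16. Its 3 probe sets gave 0.43, 0.59 and -0.24 for Instigator against Matrigel, so they did not share a sign. They averaged 11.38, 8.22 and 5.82 over the 14 arrays, in that order. Birc5 (survivin), which holds the complex at the centromere, averaged 11.70 ± 0.22 in Instigator, 11.74 ± 0.11 in Non-instigator and 11.82 ± 0.12 in Matrigel, with a difference of -0.08 (SE 0.11) between Non-instigator and Matrigel that was -0.04 without Matrigel 3, -0.05 without Non-instigator 4 and -0.13 without Matrigel 2.

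Of the genes that act at anaphase onset, Cdc20, the activator of the anaphase-promoting complex, averaged 9.24 ± 0.26 in Instigator, 9.01 ± 0.26 in Non-instigator and 8.93 ± 0.45 in Matrigel. Ube2c, the ubiquitin-conjugating enzyme of that complex, averaged 10.84 ± 0.52 in Instigator, 11.15 ± 0.17 in Non-instigator and 11.07 ± 0.15 in Matrigel. Ube2c was lower in Instigator than in Non-instigator by a difference of -0.31 (SE 0.20), and of -0.09 without Instigator 4, where it was at 9.95 against 10.81 to 11.26 on the other Instigator arrays.

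Among the kinesins, Kif4, a chromosome-bound motor that also organises the central spindle, was at 7.45, 7.09, 7.32, 7.35 and 7.18 on the Instigator arrays, 7.62, 7.24, 7.01, 7.05 and 6.94 on the Non-instigator arrays, and 7.13, 6.78, 6.69 and 7.10 on the Matrigel arrays. 4 of 5 Instigator arrays were above the highest Matrigel array, and the highest of all was Non-instigator 1. Kif4 was higher by 0.35 (SE 0.14; limma, unadjusted p = 0.0257, adjusted p = 0.443) in Instigator than in Matrigel and by 0.24 (SE 0.14; limma, unadjusted p = 0.104, adjusted p = 0.986) in Non-instigator than in Matrigel. In that comparison Kif4 had the smallest p of the 37 genes, and the difference was 0.13 without Non-instigator 1.

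Kif22, a chromosome-arm motor, averaged 9.90 ± 0.08 in Instigator, 9.84 ± 0.13 in Non-instigator and 9.67 ± 0.23 in Matrigel and was higher by 0.22 (SE 0.11; limma, unadjusted p = 0.0508, adjusted p = 0.488) in Instigator than in Matrigel. It was higher by 0.17 (SE 0.11) in Non-instigator than in Matrigel, and these differences were 0.11 and 0.06 without Matrigel 3. Its other probe sets gave 0.01 each for Instigator against Matrigel. Kif2c, which takes microtubules apart at kinetochores, averaged 8.11 ± 0.36 in Instigator, 7.75 ± 0.33 in Non-instigator and 7.74 ± 0.29 in Matrigel. It was higher by 0.37 (SE 0.20) in Instigator than in Matrigel, by 0.22 without Instigator 4 and by 0.24 without Matrigel 2. Its other 3 probe sets gave -0.04, -0.13 and -0.24. Those sets averaged 6.68, 6.43 and 5.02 over the 14 arrays, against 7.87 for the gene-level set. Against Non-instigator the Kif2c difference was 0.36 (SE 0.19), and 0.20 without Instigator 4. Kif11, which pushes spindle poles apart, averaged 8.76 ± 0.23 in Instigator, 8.82 ± 0.21 in Non-instigator and 8.95 ± 0.17 in Matrigel, with a difference of -0.14 (SE 0.13) between Non-instigator and Matrigel that was -0.06 without Matrigel 4 and -0.09 without Non-instigator 4 or without Non-instigator 5. Kif23, the motor subunit of centralspindlin, averaged 9.16 ± 0.15 in Instigator, 9.06 ± 0.11 in Non-instigator and 9.10 ± 0.13 in Matrigel. Kif20a, a central spindle motor, averaged 8.31 ± 0.41 in Instigator, 8.43 ± 0.16 in Non-instigator and 8.45 ± 0.15 in Matrigel.

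Of the proteins that bind the spindle, Tpx2, which activates Aurora A on microtubules, averaged 9.70 ± 0.26 in Instigator, 9.72 ± 0.23 in Non-instigator and 9.62 ± 0.10 in Matrigel. Nusap1, which bundles microtubules near chromosomes, averaged 10.58 ± 0.16 in Instigator, 10.67 ± 0.10 in Non-instigator and 10.61 ± 0.09 in Matrigel. Prc1, which cross-links the central spindle, averaged 10.22 ± 0.15 in Instigator, 10.24 ± 0.11 in Non-instigator and 10.23 ± 0.02 in Matrigel. Hmmr averaged 9.31 ± 0.74 in Instigator, 8.97 ± 0.33 in Non-instigator and 8.97 ± 0.07 in Matrigel, with 10.57 on Instigator 4 against 8.77 to 9.38 on the other Instigator arrays.

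The 3 cytokinesis genes were all higher in Instigator than in Matrigel, by 0.08 to 0.45. Racgap1, which with Kif23 forms centralspindlin and whose promoter has a CCAAT box at -12 and TTTGAA at 6, was at 8.59, 8.39, 8.41, 9.04 and 8.11 on the Instigator arrays, 8.58, 8.48, 8.13, 8.15 and 8.03 on the Non-instigator arrays, and 8.29, 7.70, 8.19 and 8.05 on the Matrigel arrays. 4 of 5 Instigator arrays were above the highest Matrigel array. Racgap1 was higher by 0.45 (SE 0.18; limma, unadjusted p = 0.0214, adjusted p = 0.442) in Instigator than in Matrigel. Its second probe set gave 0.16. The difference was 0.22 (SE 0.18) between Non-instigator and Matrigel and 0.24 (SE 0.17) between Instigator and Non-instigator, the last being 0.10 without Instigator 4. The Non-instigator difference against Matrigel was 0.10 without Matrigel 2 and 0.14 without Non-instigator 1.

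Anillin (Anln), a scaffold of the contractile ring, was at 7.99, 7.98, 7.73, 8.77 and 7.76 on the Instigator arrays, 8.27, 7.85, 8.03, 7.77 and 7.62 on the Non-instigator arrays, and 7.71, 7.73, 7.40 and 7.92 on the Matrigel arrays. Instigator 4 was the highest array of all. Anln was higher by 0.36 (SE 0.19; limma, unadjusted p = 0.084, adjusted p = 0.532) in Instigator than in Matrigel, and by 0.18 without Instigator 4. Between Non-instigator and Matrigel it differed by 0.22 (SE 0.19), by 0.12 without Matrigel 3 and by 0.13 without Non-instigator 1. Ect2, the exchange factor that activates RhoA at the division plane, averaged 9.75 ± 0.21 in Instigator, 9.67 ± 0.07 in Non-instigator and 9.67 ± 0.16 in Matrigel.

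Mki67 and Top2a are among the most used markers of dividing cells. Mki67, which coats mitotic chromosomes, was at 11.60, 11.53, 11.35, 11.07 and 11.34 on the Instigator arrays, 11.74, 11.52, 11.46, 11.38 and 11.53 on the Non-instigator arrays, and 11.43, 11.60, 11.62 and 11.58 on the Matrigel arrays. 3 of 5 Instigator arrays were below every Matrigel array, and the highest array was Non-instigator 1. Mki67 differed by -0.18 (95% interval -0.41 to 0.05) between Instigator and Matrigel, by -0.03 (95% interval -0.26 to 0.20) between Non-instigator and Matrigel, and by -0.15 (95% interval -0.36 to 0.07) between Instigator and Non-instigator. Without Instigator 4 the first was -0.10 and the last -0.07, and without Non-instigator 1 the last was -0.09. With single arrays left out the second ran from -0.084 to 0.0043. Top2a, the topoisomerase that untangles sister chromatids, was at 10.59, 10.55, 10.54, 10.50 and 10.58 on the Instigator arrays, 10.62, 10.53, 10.60, 10.48 and 10.42 on the Non-instigator arrays, and 10.56, 10.55, 9.93 and 10.58 on the Matrigel arrays. Matrigel 3 lay well below all other arrays. Top2a differed by 0.15 (95% interval -0.10 to 0.40) between Instigator and Matrigel, and by -0.01 without Matrigel 3. Against Matrigel the Non-instigator difference was 0.13 (95% interval -0.12 to 0.38), and -0.03 without Matrigel 3.

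**Figure D5:**
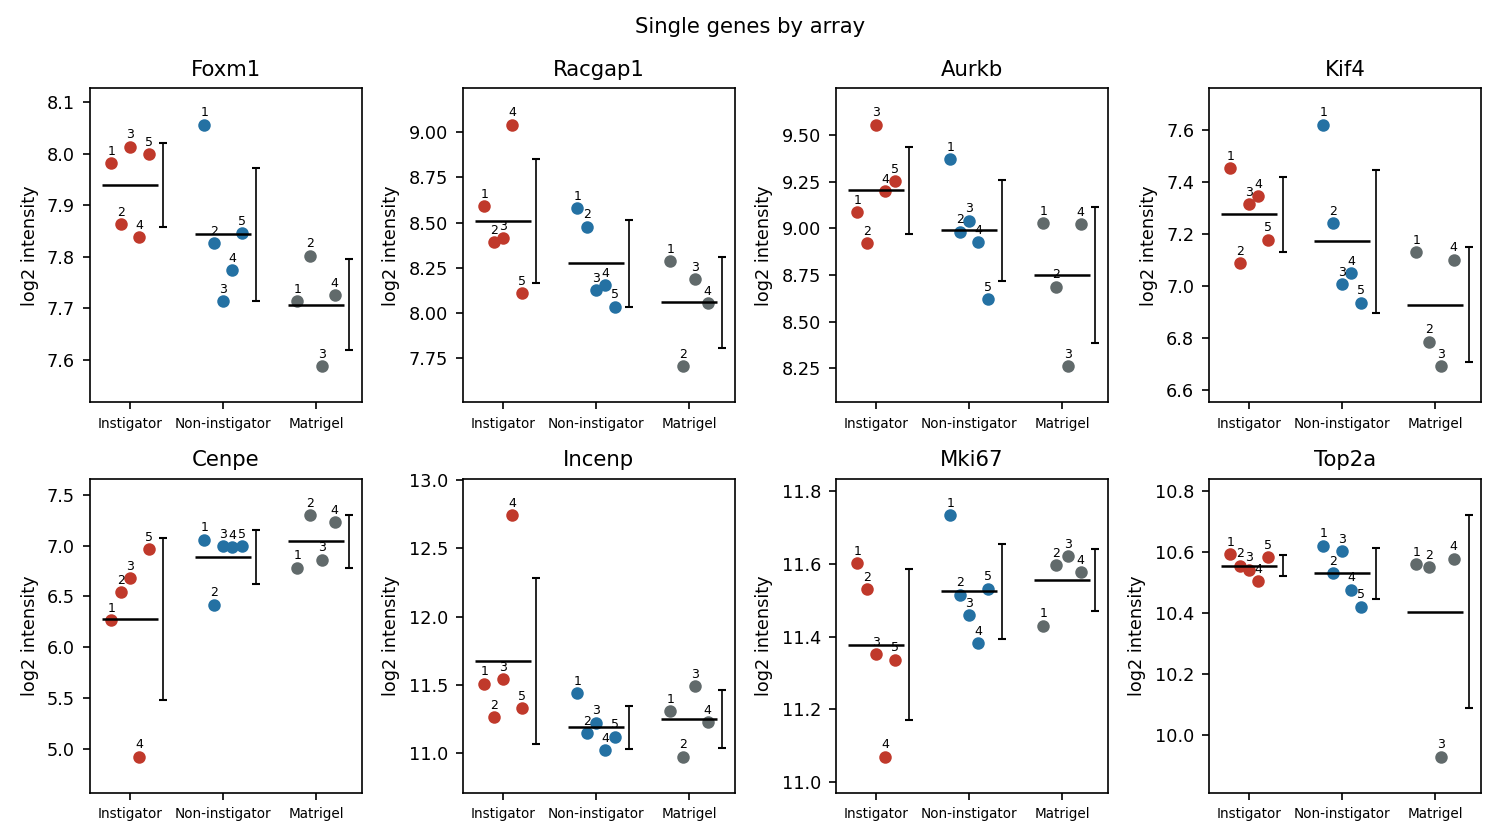
Log2 intensity of 8 genes on each array, in the order Instigator, Non-instigator and Matrigel, with array numbers beside the points, the group mean as a line and the SD as a bar. The Foxm1 values of Instigator and Matrigel do not overlap, Instigator 4 stands apart for Cenpe and Incenp, and Matrigel 3 for Top2a.

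Probe sets of the same gene often gave different directions, and the share over all genes with several sets is not given here. Some of the sets not used at gene level were dim. Their means over 14 arrays were 3.36 and 4.13 for Cdca3, 3.85 for Foxm1, 5.04 for Bub1 and 5.39 for Cenpf. The dimmest Kif11 and Cdc20 sets averaged 7.24 and 8.43. Of the 18 genes with several sets, all sets shared a sign for 11 genes in Instigator against Matrigel, for 4 in Non-instigator against Matrigel and for 10 in Instigator against Non-instigator. Set against the mean of the other Instigator arrays, the 37 genes on Instigator 4 ran from -1.69 to 1.84, with 18 higher, 19 lower and 5 more than 1 away, as were 760 of all 12393 genes. For 13 of the 18 genes the probe sets had both signs there. The Kif11 sets ran from -1.11 to 0.62, the Cdc20 sets from -0.88 to 0.43, the Cenpf sets from -0.14 to 1.84 and the Hmmr sets from -0.23 to 1.57. Without Instigator 4 and Matrigel 3, 28 of the 37 genes were higher in Instigator than in Matrigel with a median of 0.09. At an unadjusted p 3 were higher and 1 lower, with no background given for that fit. In the same setting 18 of 37 were higher in Non-instigator than in Matrigel, with a median of -0.01, and 29 of 37 were higher in Instigator than in Non-instigator, with a median of 0.06.

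The measured genes with a promoter found can also be split by it. Aurkb, Ccna2, Foxm1, Incenp, Kif20a and Tpx2 had none and are in neither part. Of these, Aurkb was higher in Instigator than in Matrigel by 0.45 and Incenp by 0.43, and only Kif20a was lower. Cenpe, at -0.77 there, is in the part without TTTGAA. Whether the motif bears on the differences was not tested. The 24 measured genes with TTTGAA in a promoter had a median of 0.12 for Instigator against Matrigel, with 16 higher, and the 7 without it had a median of 0.01, with 4 higher. For Instigator against Non-instigator the medians were 0.08 with 18 of 24 higher, and 0.01 with 4 of 7 higher. For Non-instigator against Matrigel they were 0.02 with 17 of 24 higher, and -0.06 with 2 of 7 higher.

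86 further genes of mitosis were measured of 115 listed: subunits of the anaphase-promoting complex, cohesin and condensin, other kinetochore, spindle and cytokinesis genes, and other regulators of entry. 0 of them passed at an adjusted p in any comparison (limma). In Instigator against Matrigel 48 were higher and 38 lower, with a median of 0.04 against -0.02 over all genes, and at an unadjusted p 3 were higher (background 3.27%) and 1 lower (background 7%). Ska2, a subunit of an outer kinetochore complex, differed by -0.44 (SE 0.12). Mad1l1, the kinetochore anchor of Mad2, differed by 0.30 (SE 0.09), and Rad21, a cohesin subunit, by 0.33 (SE 0.12). In Non-instigator against Matrigel 27 of the 86 were higher and 59 lower, with a median of -0.05, while 38.3% of all genes were higher, and 1 was higher at an unadjusted p (background 0.601%). In Instigator against Non-instigator 60 were higher and 26 lower, with a median of 0.10, while 58.2% of all genes were higher, and 4 were higher at an unadjusted p (background 2.24%). Spc25, of the same complex as Ndc80 and Nuf2, differed by 0.50 (SE 0.19), and Pkmyt1, a kinase that inhibits Cdk1, by 0.47 (SE 0.20).

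Genes of DNA replication were read in the same way. 26 of 39 were higher in Instigator than in Matrigel, with a median of 0.13, while 45.9% of all genes were higher, and 7 of the 39 were higher at an unadjusted p (background 3.27%). The polymerase subunit Pole differed by 0.71 (SE 0.15), the licensing factor Cdt1 by 0.68 (SE 0.18) and the helicase subunit Mcm2 by 0.56 (SE 0.23). In Non-instigator against Matrigel 16 of the 39 were higher, with a median of -0.02, while 38.3% of all genes were higher. In Instigator against Non-instigator 28 were higher, with a median of 0.13, while 58.2% of all genes were higher. Of 15 regulators of the DREAM, MuvB and E2F group, 5 were higher in Instigator than in Matrigel, beside the 45.9% of all genes. E2f8, a repressor of E2F targets, differed by 0.26 (SE 0.09) there and by 0.29 (SE 0.09) against Non-instigator. Rbl2, of the same list, differed by -0.28 (SE 0.11) between Instigator and Non-instigator. Of 15 inhibitors of cyclin-dependent kinases and G1 cyclins, 3 were higher in Instigator than in Matrigel, with a median of -0.08. Cyclin D2 (Ccnd2) differed by -0.47 (SE 0.18) between Instigator and Non-instigator, and cyclin D1 (Ccnd1) by -0.56 (SE 0.25) between Non-instigator and Matrigel.

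Markers of the cell types that the sort could hold were read over the same arrays, and 0 of them were called at an adjusted p in any list (limma). In Instigator against Matrigel, 2 of 11 B precursor markers were higher with a median of -0.48, 0 of 5 mature B markers with a median of -0.62, 0 of 6 plasma cell markers with a median of -0.41 and 1 of 7 dendritic markers with a median of -0.66. 10 of 11 granulocyte precursor markers were higher with a median of 0.15, and 6 of 7 basophil and mast cell markers with a median of 0.49. At an unadjusted p, 4 B precursor, 1 mature B, 2 plasma cell and 5 dendritic markers were lower (background 7%), and 4 granulocyte precursor markers and 1 of the basophil and mast cell list were higher (background 3.27%). The erythroid median was -0.02, with 5 of 11 markers higher. In Non-instigator against Matrigel the medians were -0.14 for B precursors and 0.10 for granulocyte precursors. There 7 of 7 basophil and mast cell markers were higher with a median of 0.45. Dendritic markers were higher for 0 of 7 with a median of -0.33, and mature B markers for 0 of 5 with a median of -0.32. Of the plasma cell markers 4 of 6 were higher, with a median of 0.03. In Instigator against Non-instigator the B precursor and granulocyte precursor medians were -0.32 and 0.08. Natural killer (NK) and T cell markers were lower in Instigator than in Non-instigator for all 7 of each list, with medians of -0.42 and -0.24, and 5 of the NK markers were so at an unadjusted p (background 3.36%). All 6 plasma cell markers were lower there too, with a median of -0.47. Against Matrigel, 7 of 7 NK markers were higher in Non-instigator with a median of 0.23 and 0 of 7 in Instigator with a median of -0.09. The part of these lists in the mitosis values was not tested.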

How the data were processed

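Gene expression was measured on 14 Affymetrix mouse arrays of sorted bone marrow cells, 1 biotin-labelled sample per array, with groups taken from the sample titles. The authors deposited linear intensity values of RMA, made with the affy package under R 2.11.0, per the submitters' processing notes. RMA options are not given in the labels, and scanner values were not used here. Log2 of the deposited intensity was taken with no further scaling. The 64 control probe sets were left out, leaving 22626. The platform annotation gave the gene names. Probe sets with several symbols were not used, including 1 that names Foxm1 with others. Ends of probe set names (x_at or s_at, 6 of the 37 gene-level sets) mark probes that can match related transcripts.

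All 14 arrays entered 1 limma 3.58.1 fit (R 4.3.3, eBayes after lmFit), with Benjamini-Hochberg adjustment over 22626 probe sets and a threshold of 0.05. Percent called, given as background, is the share of those probe sets that meet the same criterion in the fit of all 14 arrays. It is not given for the alternative fits. The fit was tested on simulated data. The gene names and lists, and the tests, were chosen with earlier results of these data known. Named with differences are Mki67, Cdk1 and Top2a, and the 12 genes of smallest p in each comparison, and other lists show up to 3 genes of largest difference. As alternatives, fits used 2 groups alone, the brighter probe sets, quantile normalization, centring, a variance trend with robust estimation, the replicate number as a block, arrays left out, Instigator 5 moved, and averages over probe sets. Median intensity per array ran from 119 to 145, and the number of arrays limits the precision. Promoter matches were counted with Python 3.11.15, and plots were drawn with matplotlib 3.10.9.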

Additional observations from a re-analysis of the deposited data

Results flagged for a closer look

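Of 72 groups of arrays examined, among them those of the 23 named genes, 4 held an array far from the rest of its group, and chance gives about 1 in 20. The groups of different genes share the same arrays, and 2 of the 4 were on Instigator 4, so they are not independent. Anln was at 8.77 on Instigator 4, against 7.73 to 7.99 on the other Instigator arrays. Incenp was at 12.74 on Instigator 4, against 11.26 to 11.54. Cenpe was at 6.42 on Non-instigator 2, against 6.98 to 7.06 on the other Non-instigator arrays. Top2a was at 9.93 on Matrigel 3, against 10.55 to 10.58 on the other Matrigel arrays.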

How the results depend on the processing

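The count of mitosis genes with an adjusted p under 0.05 was 0 in all 3 comparisons under each of the 23 alternatives, and the lowest adjusted p of a named gene in any of them was 0.25. Of 987 alternative values of the 43 named differences, 972 kept their direction and 15 did not. Over all probe sets, Instigator against Matrigel gave 1 call without Instigator 4 and 1 without Instigator 4 and Matrigel 3. Its genes higher at an unadjusted p numbered 7 under quantile normalization, 8 with Instigator 5 counted as Non-instigator and 3 to 7 with single arrays left out. Its genes lower numbered 0 with only the groups compared, 0 with the brighter probe sets and 0 to 2 with single arrays left out. For Instigator against Non-instigator, genes higher numbered 0 with only the groups compared, 3 under quantile normalization, 5 with Instigator 5 moved, 3 with probe sets averaged and 0 to 6 with single arrays left out. Genes lower numbered 1 with trend and robust estimation, 1 with Instigator 5 moved and 0 to 1 with single arrays left out. The share over all probe sets in each of these fits is not given. These counts alone therefore cannot tell a change in the mitosis genes from one across the array. Under quantile normalization the median of the 37 genes was 0.13 for Instigator against Matrigel, against 0.03 over all genes. For Non-instigator against Matrigel these were 0.03 and 0.004, and for Instigator against Non-instigator 0.12 and 0.02. Without Instigator 4 and Matrigel 3 the pairs, in the same order, were 0.09 and 0.03, -0.01 and 0.005, and 0.06 and 0.02.

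The Cdk1 difference was -0.085 for Instigator and -0.077 for Non-instigator against Matrigel without Instigator 4 and Matrigel 3. With single arrays left out it ran from -0.037 to 0.24 for Instigator and from -0.077 to 0.20 for Non-instigator against Matrigel, the lowest values being those without Matrigel 3. For Instigator against Non-instigator it ran from -0.0085 (without Instigator 4, with or without Matrigel 3) to 0.095, and was -0.0071 without Non-instigator 5. The Top2a difference ran from -0.0081 to 0.21 for Instigator and from -0.033 (without Matrigel 3, with or without Instigator 4) to 0.18 for Non-instigator against Matrigel, and from -0.0024 to 0.048 for Instigator against Non-instigator. Mki67 in Non-instigator against Matrigel was 0.024 with centred arrays and ran from -0.084 to 0.0043, the highest without Non-instigator 4. With probe sets averaged, Kif2c was -0.0091 for Instigator against Matrigel and Bub1 0.068 for Non-instigator against Matrigel. Causes of these changes were not tested.

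The medians over the 37 genes changed with the arrays used. With single arrays left out they ran from 0.07 to 0.15 for Instigator against Matrigel, from -0.04 to 0.07 for Non-instigator against Matrigel and from 0.05 to 0.14 for Instigator against Non-instigator. Arrays of the same number correlated from -0.13 to 0.27, from -0.20 to 0.17 and from -0.09 to 0.25 in these comparisons. They were closest to their own number in 1 of 4, 1 of 4 and 0 of 5 pairs. So few pairs cannot show whether arrays of the same number share more than that number. In fits with number as a replicate block the medians were 0.13, 0.04 and 0.08. There 1 gene was higher at an unadjusted p in Non-instigator against Matrigel, with no background given for that fit.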
